A study of Mus musculus with 6 samples.

Results

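The late cornified envelope 1 (Lce1) genes described here are Lce1a1, Lce1a2, Lce1b, Lce1c, Lce1d, Lce1f and Lce1g, found as 7 of the 570 rows of a deposited expression table by their symbols. They were chosen by their measured level: of the 14 Lce1 rows in the table they are the 7 with the highest means over the columns named control. The table's name presents it as a final list of differentially expressed genes, so its rows had been selected on measured differences before they were deposited, by a rule that the sources used here do not give. The levels below are therefore a description, and no test was made on them.

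The series profiled primary osteoclasts, the cells that resorb bone, by RNA sequencing. The cells came from wildtype C57BL/6 mice and were induced with RANKL and M-CSF. Its 6 samples, all of day 3, are 3 controls and 3 cultures that also received interferon-gamma. The ages of the mice, and whether replicates came from separate animals or cultures, are not stated in the sources used here, so the spread between columns may be technical. The columns that carry the name CTRL with a number were matched by name alone to the numbered control titles. They are called control 1, 2 and 3, and that they hold these samples is an assumption. None of the columns matched an interferon-gamma label, and 3 columns named FKD, which match no label at all, were not used. Differences between conditions were therefore not analysed here.

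Late cornified envelope proteins are small proteins rich in cysteine, glycine and serine. They are joined by transglutaminases to the inner face of the cornified envelope, the insoluble shell that replaces the plasma membrane of a keratinocyte late in its differentiation. Their genes lie in the epidermal differentiation complex, a cluster that also holds the genes for loricrin, involucrin, filaggrin and the small proline-rich proteins. The family is known from stratified epithelium and not as a product of osteoclasts.

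The sequence just before the start of these genes is shown first, because the members resemble each other there as well as in their transcripts. RefSeq promoter entries of build GRCm38.p6 matched 6 of the 7 members. The 80 bases before the annotated start are chr3:92648308-92648387 (minus strand) for Lce1a1, chr3:92670316-92670395 (minus strand) for Lce1a2, chr3:92656927-92657006 (minus strand) for Lce1b, chr3:92679167-92679246 (plus strand) for Lce1c, chr3:92687211-92687290 (minus strand) for Lce1d and chr3:92752339-92752418 (minus strand) for Lce1g. Each is written 5′ to 3′ on the strand of its gene, and capitals mark matches to ATAAAAG or TATAAA, A/T-rich motifs of the TATA box kind.
Lce1a1: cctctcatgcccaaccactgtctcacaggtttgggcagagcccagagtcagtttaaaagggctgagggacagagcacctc
Lce1a2: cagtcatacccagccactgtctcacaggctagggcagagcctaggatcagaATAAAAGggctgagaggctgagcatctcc
Lce1b: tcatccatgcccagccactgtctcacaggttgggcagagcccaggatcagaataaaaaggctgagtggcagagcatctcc
Lce1c: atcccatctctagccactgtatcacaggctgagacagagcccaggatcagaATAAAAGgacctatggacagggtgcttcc
Lce1d: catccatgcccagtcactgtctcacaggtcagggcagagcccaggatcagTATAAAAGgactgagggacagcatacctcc
Lce1g: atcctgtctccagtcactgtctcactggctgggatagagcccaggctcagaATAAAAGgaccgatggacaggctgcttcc

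Between pairs of these 80-base windows, identity had a median of 73.8% over 15 pairs, from 66.3% for Lce1a2 with Lce1g to 87.7% for Lce1a2 with Lce1b. Over the full 250 bases before the start, the median was 65.2%, with a range of 56.5% to 73.8%. The motif ATAAAAG, searched on both strands of the 250 bases, was present in 4 of 6 members, in each case starting 29 bases before the annotated start. It was also present in 6 of the 7 other Lce1 promoters, so it does not set the members apart within the family, and in 4.83% of 32851 mouse promoter entries. TATAAA was present in 1 of 6 members (Lce1d, where it overlaps ATAAAAG) in 1 of 7 other Lce1 promoters and in 12.4% of all entries. The AP-1 motif TGANTCA was present in 0 of 6 members, in 0 of 7 other Lce1 promoters and in 6.75% of all entries. ATAAAAG was picked after these promoters had been read, so its count among them is a description, and a match is not evidence that a factor binds.

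The coding sequences carry repeats that the family members share. The longest identical coding run between any pair of members was 107 bases, in Lce1b and Lce1c, genes of mouse chromosome 3. In that run, read from GENCODE M21 transcripts (GRCm38), capitals mark the 3 copies of a 20-base unit.
Lce1b and Lce1c: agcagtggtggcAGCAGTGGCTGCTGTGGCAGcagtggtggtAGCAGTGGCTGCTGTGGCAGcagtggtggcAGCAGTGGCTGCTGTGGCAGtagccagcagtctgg

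That unit was present in the coding sequence of all 7 members. Lce1a1 and Lce1c had 4 copies, Lce1b and Lce1g 3, Lce1d and Lce1f 2, and Lce1a2 had 1. Among the other Lce1 genes it was present in 5 of 7. Lce1l and Lce1m lacked it. Of 55341 gene names in the GENCODE M21 transcript set, 13 had a transcript with this unit, and 12 of those were Lce1 genes.

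Identity between members was high in the coding part and lower over whole transcripts. Over 21 pairs the coding identity had a median of 87.5%, from 74.9% for Lce1a1 with Lce1d to 95.7% for Lce1c with Lce1f. Whole transcripts, which are 647 to 925 bases long, had a median identity of 73.1%, from 58.5% for Lce1d with Lce1g to 88.0% for Lce1a1 with Lce1a2. Among the members, Lce1d stood apart in the coding part, with 74.9% to 83.4% identity to the others. This does not hold for the whole family. Its coding identity with the Lce1 genes outside the set ran from 46.1% for Lce1m to 92.6% for Lce1l. The closest transcript also lay outside the set for Lce1d (Lce1e, 80.7%), Lce1f (Lce1i, 82.8%) and Lce1g (Lce1i, 69.1%). For the remaining members it lay within the set.

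**Figure D1:**
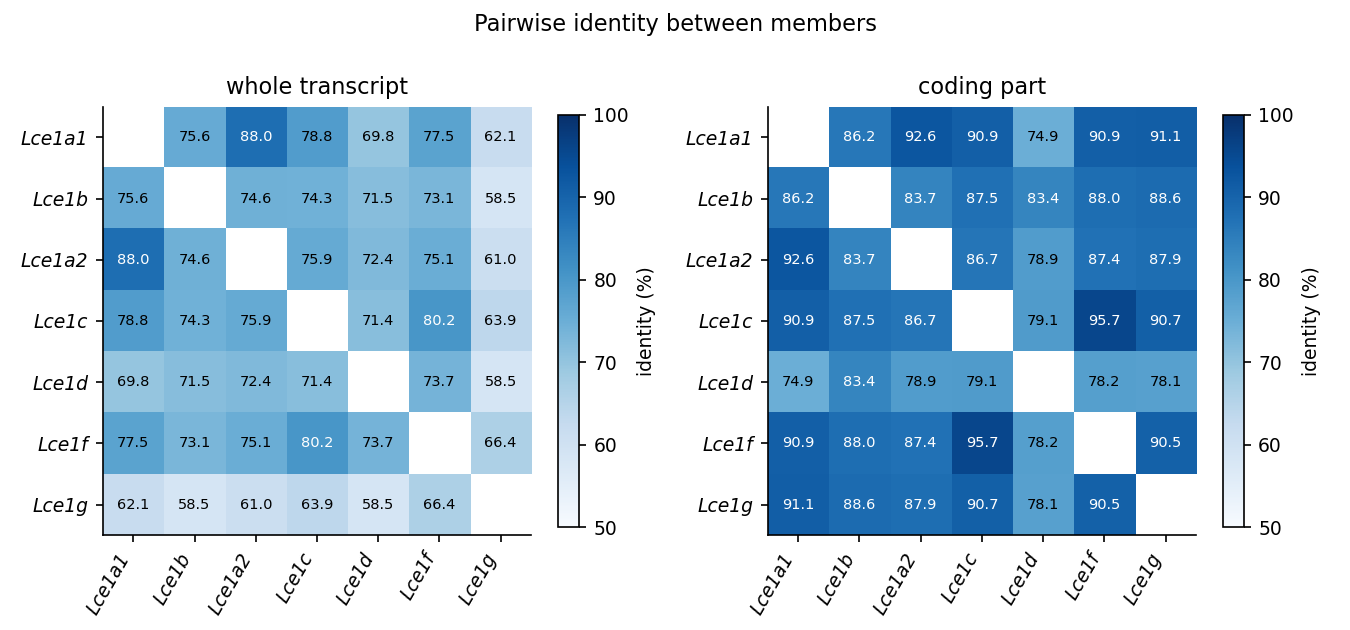
Pairwise identity (percent of alignment columns) between the 7 members in gene order, for the whole transcript (left panel) and the coding part (right panel), from global alignments of GENCODE M21 sequences. Lce1a1 and Lce1a2 are the closest pair as transcripts (88.0%) and Lce1c and Lce1f in the coding part (95.7%), while Lce1d has the paler row in the coding panel.

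How far such similarity could mix the members' values depends on read length, which the sources used here do not state. Of all 50-base windows in the 7 member transcripts, 20.8% occurred exactly in another Lce1 transcript. By member the share ran from 15.0% in Lce1a2 and Lce1f to 25.4% in Lce1d. With windows of 25 bases the share was 47.4%, and with windows of 100 bases 1.29%. No window of 150 bases was shared. Of the 50-base windows in the members, 0 were shared only with genes outside Lce1. Whether windows shared within Lce1 also occur in other genes was not counted. At 25 bases, genes outside Lce1 also shared sequence with Lce1 transcripts. Among them was Gm38119, itself a row of the table with a mean of 4.51. How the authors assigned reads that match several genes is not stated in the sources used here, so the split of reads among members is uncertain.

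**Figure D2:**
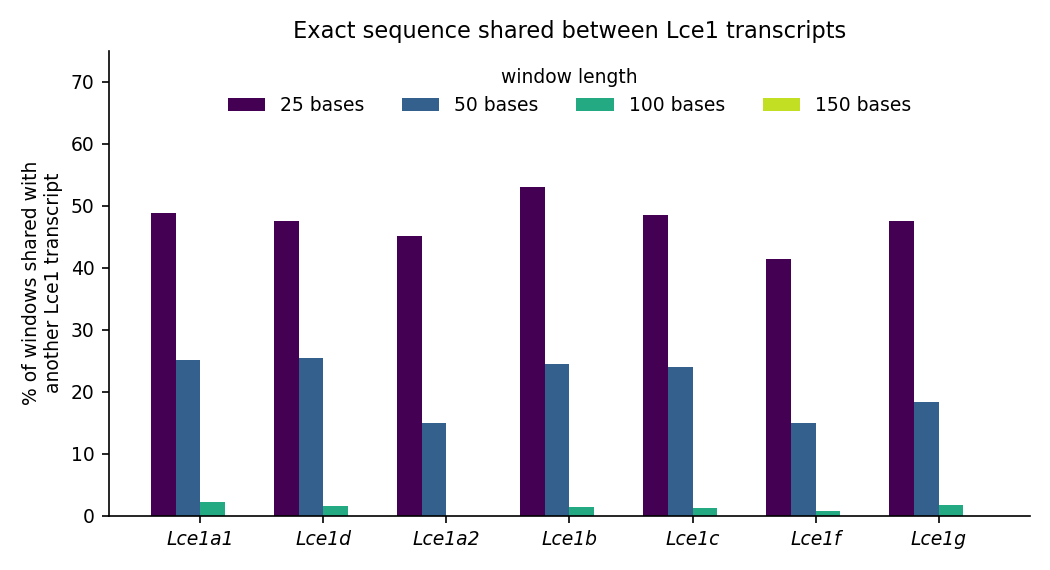
Bars give, for each member, the percentage of its transcript's windows that occur exactly in the transcript of another Lce1 gene, for window lengths of 25, 50, 100 and 150 bases. At 25 bases the bars lie between 41.3% and 53.0%, at 100 bases at 2.15% or below, and at 150 bases all are 0.

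The values are a deposited expression signal whose unit is not named in the table or the labels. If they are FPKM or TPM they are already divided by transcript length; comparisons of level between genes below assume that. Sequencing depth is unknown. Over the 570 rows the columns summed to 13620, 13318 and 13508, which are sums of a selected list and not library sizes. In bulk RNA, fewer cells of a type and less RNA per cell cannot be told apart.

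Lce1a1 had the highest level of the family. It was 436.3 in control 1, 428.5 in control 2 and 426.2 in control 3, a mean of 430.3 ± 5.32 (SD, n = 3), and it ranked 6 of 570 rows. Its closest relative by transcript, Lce1a2, was at 375.4, 381.3 and 380.0 (mean 378.9 ± 3.13), below Lce1a1 in every column. Lce1d, whose coding sequence differed most from those of the other members, was at 387.8, 392.2 and 377.9 (mean 385.9 ± 7.31). The levels of Lce1d and Lce1a2 overlapped: Lce1d was the higher in 2 of 3 columns, and their means differed by 7.04, less than the SD of Lce1d.

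Lce1b was at 369.3, 368.3 and 350.5 (mean 362.7 ± 10.6). Lce1c was at 344.3, 346.6 and 315.7 (mean 335.5 ± 17.2) and varied most among the members, with a coefficient of variation of 5.12%. Both were lowest in control 3, and neither overlapped its neighbours in the order. Below them came a wider step. Lce1f was at 252.4, 246.4 and 247.9 (mean 248.9 ± 3.08), so that Lce1c exceeded it between 1.27-fold and 1.41-fold within a column. Lce1g was at 247.3, 229.0 and 228.3 (mean 234.9 ± 10.8). Lce1f lay above Lce1g in each column, but the ranges of these genes overlapped.

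**Figure D3:**
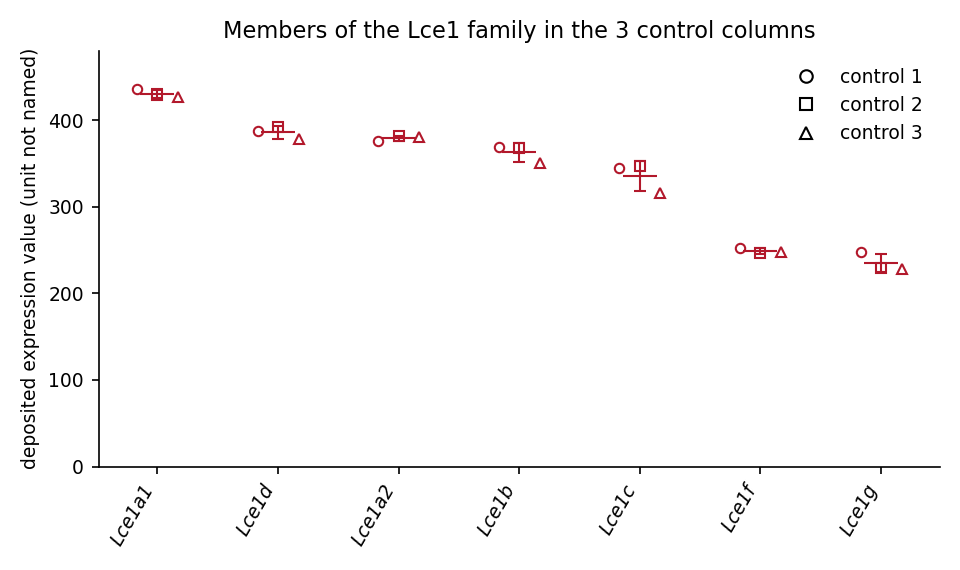
Deposited expression value (unit not named) of the 7 members in control 1 (circles), control 2 (squares) and control 3 (triangles), with the mean (line) and SD (bars, n = 3). Lce1a1, Lce1d, Lce1a2, Lce1b and Lce1c sit between 315.7 and 436.3, and Lce1f and Lce1g between 228.3 and 252.4.

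The boundary of the chosen set does not mark a gap. Lce1g, the lowest member, and Lce1i, the highest Lce1 gene outside the set, differed by 4.001 in their means. Lce1i was at 239.1, 232.1 and 221.4 (mean 230.9 ± 8.92). The ratio of Lce1g to Lce1i within a column ran from 0.987 to 1.03, and Lce1i was the higher in control 2. Then followed Lce1j at 213.5 ± 8.36, Lce1h at 211.7 ± 7.399, Lce1e at 178.8 ± 7.19, Lce1k at 162.0 ± 2.64 and Lce1l at 120.5 ± 1.12 (SD, n = 3). Lce1m was far lower, at 4.89, 5.46 and 5.53 (mean 5.29 ± 0.349), and Lce1l exceeded it 22.8-fold.

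Along the chromosome the members fell into a block and a pair. In the GENCODE M21 order, Lce1a1, Lce1b, Lce1a2, Lce1c and Lce1d follow one another at the end of the cluster next to Lce6a. These 5 genes are also the 5 with the highest levels: each of their values was at least 315.7, whereas no value of the next 8 genes exceeded 252.4. Lce1e, which lies between Lce1d and Lce1f, was at 185.7, 179.4 and 171.3, below each of the genes beside it in every column. From Lce1e to Lce1l the means stayed between 120.5 and 248.9. Lce1m, which had the low level, lies apart from the other Lce1 genes, beyond the 6 Lce3 genes. Lce1c is the 1 member annotated on the plus strand, and it was lower than its minus-strand neighbours Lce1a2 and Lce1d in every column.

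**Figure D4:**
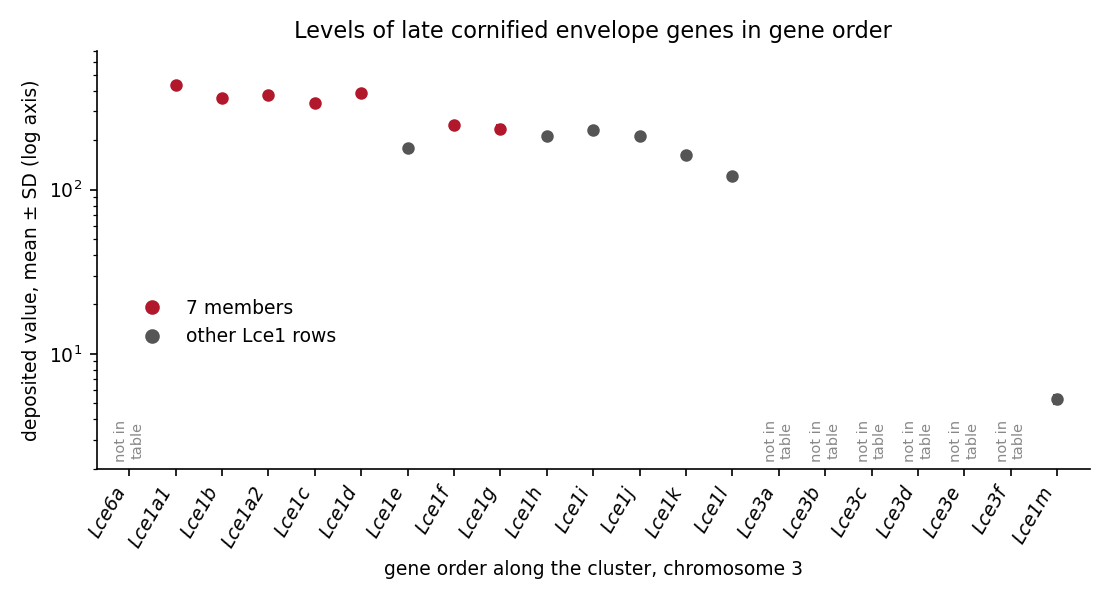
Mean deposited value (log axis, bars SD, n = 3, mostly smaller than the points) of late cornified envelope genes in their order along mouse chromosome 3, with the 7 members in red and the other Lce1 rows in grey. The 5 genes from Lce1a1 to Lce1d lie between 335.5 and 430.3, Lce1m lies at 5.29, and genes without a row in the table are marked as such.

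Summed over the 7 members, the value was 2413 in control 1, 2392 in control 2 and 2327 in control 3, a mean of 2377 ± 45.0 (SD, n = 3). This was 17.7%, 18.0% and 17.2% of all values summed over the table (mean 17.6% ± 0.376). The 7 other Lce1 rows added 8.33% ± 0.189, so that the 14 Lce1 rows held 26.0% ± 0.541 of the table's sum. The share refers to the listed rows only and says nothing about the share of the transcriptome.

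The make-up of the family sum was nearly the same in each column. Lce1a1 held 18.1%, 17.9% and 18.3% of it, Lce1d 16.1%, 16.4% and 16.2%, and Lce1a2 15.6%, 15.9% and 16.3%. The largest movement was that of Lce1c, at 14.3%, 14.5% and 13.6%. Lce1f and Lce1g held the smallest parts, with means of 10.5% ± 0.178 and 9.88% ± 0.343.

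Control 3 was the low column for the family. It held the lowest value for 5 of 7 members and the highest for 0, while over all 570 rows it held the lowest value for 160 and the highest for 205. The gap was small: the family sum in control 3 was 2327, beside 2413 in control 1, and the exceptions were Lce1a2, lowest in control 1, and Lce1f, lowest in control 2. Genes of one family that share sequence are not independent observations of a column.

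The members' columns lay close together. Their median coefficient of variation was 1.90% (0.827% to 5.12%). It was 3.32% (1.86% to 7.22%) for the 11 rows outside the Lce1 family whose means lay within 2-fold of the members' range. The 7 other Lce1 rows had a median of 3.87%, and all 14 Lce1 rows 3.21%. The smaller median was thus seen in the members and not in the Lce1 family as a whole, but it does not set the members apart. The members' range overlapped that of the 11 rows. Outside the set, Lce1l (0.926%) and Lce1k (1.63%) lay below the members' median, and the remaining Lce1 rows lay above it. The members' value rests on 3 columns: it was 0.422% without control 1 and 1.11% without control 3, and 1.82% without control 2, beside 3.31%, 2.72% and 3.63% for the 11 rows. Because the rows were selected by a rule that may favour a small spread, these figures do not measure the reproducibility of the libraries.

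Within the table all Lce1 rows except Lce1m (rank 127) stood near the top. The members were chosen for high means, so their own ranks partly restate that choice. Means of 100 or more were reached by 29 rows, of which 13 were Lce1 genes, and 5 of the 10 highest rows were members. The lowest member, Lce1g, was 198-fold above the median row of 1.18, and the highest, Lce1a1, 363-fold.

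**Figure D5:**
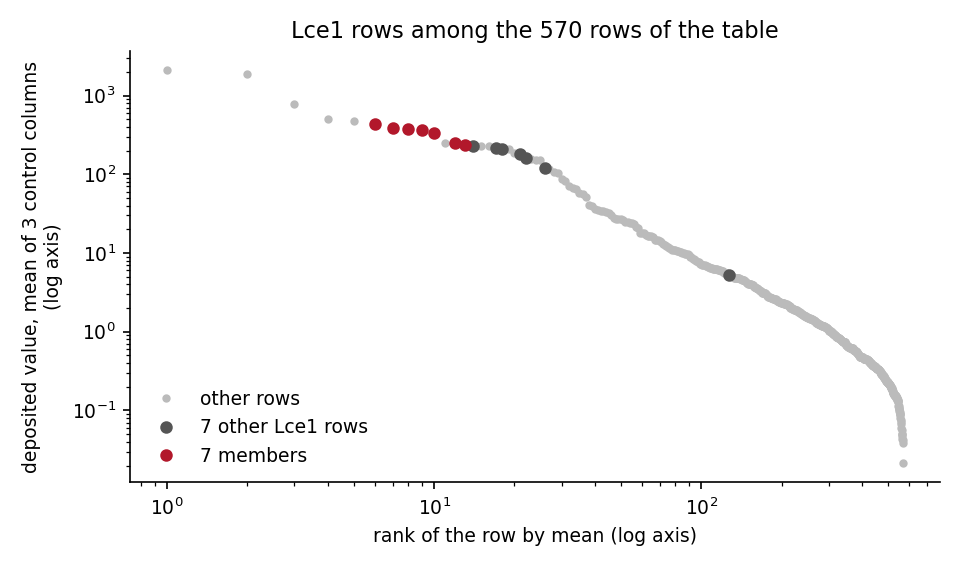
Mean deposited value over the 3 control columns against the rank of the row (both axes logarithmic) for the 570 rows, with the 7 members in red, the 7 other Lce1 rows in dark grey and all other rows in light grey. The members take ranks 6 to 10, 12 and 13, and Lce1m takes rank 127.

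The rows most like the family profile were found by the Euclidean distance of log2(value + 1) over the 3 columns, which with so few columns measures mainly likeness of level. The nearest was Crisp1, a cysteine-rich secretory protein gene, at 233.0, 246.0 and 268.5, with a distance of 0.74. It was highest in control 3, the column in which most members were lowest. Next were Fmo2, a flavin-containing monooxygenase gene, at 475.4 ± 18.8 (distance 0.90), and Lce1i itself (distance 0.91). Sprr2d, a small proline-rich envelope precursor gene, at 229.3 ± 7.05 (distance 0.93), and Kprp, a keratinocyte proline-rich protein gene, at 226.8 ± 5.99 (distance 0.96), completed the 5. Of these, Lce1i, Sprr2d and Kprp belong to the epidermal differentiation complex.

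Other genes of that complex were present in the table in part. Of 52 listed symbols outside Lce1, 10 had a row, beside 2.35% of 21900 mouse protein-coding symbols. The list may not hold every gene of the complex, and rows outside it were not counted. The means of these 10 were all lower than those of the members, which had been chosen for high means among the Lce1 rows. The mean of Lce1g was exceeded by 0 of these 10, but the ranges of Kprp and Sprr2d overlapped that of Lce1g. Kprp was at 229.3 in control 2 and 231.2 in control 3, above Lce1g at 229.0 and 228.3. Sprr2d was above Lce1g in control 3 only, at 237.5, and both genes were below it in control 1. Of 16 Sprr symbols, which encode small proline-rich precursors of the envelope, 7 had a row, all from the Sprr2 group. After Sprr2d they were Sprr2f at 51.9 ± 2.16, Sprr2g at 25.05 ± 2.06, Sprr2h at 10.3 ± 1.30, Sprr2e at 5.97 ± 0.721, Sprr2i at 4.77 ± 0.973 and Sprr2b at 1.27 ± 0.109 (SD, n = 3). The Sprr2 genes also resemble each other in sequence, so their split is uncertain too.

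Of the fused S100-type genes of the complex, 1 of 7 had a row, Flg, which encodes filaggrin, an aggregator of keratin filaments, at 16.3, 16.8 and 16.2. Prr9, a proline-rich protein gene, was at 4.52 ± 0.409. None of the other late cornified envelope genes (0 of 7: Lce3a to Lce3f and Lce6a), of the S100 genes (0 of 13) or of the genes for envelope cross-linking, desquamation and lipid processing (0 of 17, among them Tgm1 and Tgm3, which encode transglutaminases) had a row. Because the table is a selected list, a gene without a row cannot be read as unexpressed. With 2.35% of all protein-coding symbols having a row, a count of 0 in lists this short says little.

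Marker genes of the labelled cell type and of other cells were looked up among the rows, where 2.35% of 21900 mouse protein-coding symbols have a row. Of 12 osteoclast markers, 1 had a row, Car2, whose carbonic anhydrase supports acid secretion in resorption, at 9.97, 11.2 and 11.6. Acp5 and Ctsk, which encode the acid phosphatase and the cathepsin that define resorbing osteoclasts, had none, nor did any of 8 macrophage markers. Of 12 keratinocyte markers, 1 had a row (Flg), and of 8 skeletal muscle markers, 7 had one, with summed values of 419.6 ± 4.62 (SD, n = 3). The marker lists were written with earlier results of these data known, so these counts may partly restate that choice. Since the rows were also selected on differences, the counts cannot tell which cells the columns came from. The columns were linked to osteoclast cultures by name alone, and the source of the Lce1 signal was not tested.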

How the data were processed

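RNA sequencing of 3 control and 3 interferon-gamma samples was described by the labels. The authors' deposited table gives a normalised expression signal per gene that is never negative. Its unit, quantification tool, read length and row selection rule are not stated in the sources used here. Bowtie2 2.4.4 and both GRCm39 and GRCh37 appear, with no role, in the submitters' processing notes. Columns were matched to samples by name. This gave 3 control columns and 0 interferon-gamma columns, and 3 columns that match no label were not used. No test was fitted.

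Means and SDs were taken per row across the control columns. The rows named are all 7 members, the listed genes of the epidermal differentiation complex and marker lists that had a row, the 5 rows nearest to the members' mean profile, and the other Lce1 rows. The members and lists were chosen with earlier results of these data known. GENCODE M21 transcripts (the longest per gene, GRCm38) were compared by global alignment and by exact windows on both strands. The code for the window count and the distance was run on simulated data with planted cases. That checks the code only, not how well the distance works on 3 columns. Python 3.11.15, pandas 2.3.3, numpy 2.4.6, Biopython 1.88 and matplotlib 3.10.9 were used. Alternatives were leaving out each column, medians, scalings, denominators, pseudocounts (0.1 and 5) and window lengths.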

Additional observations from a re-analysis of the deposited data

How the results depend on the processing

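No paired analysis was possible because the numbered interferon-gamma samples have 0 matched columns, which leaves replicate numbers in a single group. The family sum of 2377 was 2392 as the median of the columns, 2377 with columns scaled to a common sum, and 2359 to 2403 with 1 control left out. Taken over all 14 Lce1 rows, a set added after the data were seen, it was 3499.9. The share of 17.6% was 17.5% to 17.8% with 1 control left out, 17.8% over the rows whose mean reached 1, and 20.9% without the highest row, since the denominator is then smaller. The ratio of the highest to the lowest member mean, 1.83, was 1.81 to 1.87 with 1 control left out and 1.87 by medians. Divided by transcript length it was 2.404, as Lce1g has the longest transcript. The order of levels was not redone with that division. Lce1g (mean 234.9, 925 bases) would then fall below Lce1i (mean 230.9, 731 bases), so the choice of the highest Lce1 rows depends on the unit. The median coefficient of variation of 1.90% was 2.61% after scaling and 0.422% to 1.82% with 1 control left out. The 11 rows of similar level were not scaled. The 5 nearest rows were the same 5 with pseudocounts of 0.1 and 5 and when rows with a mean under 1 were left out. Those 5 rows have means of 226.8 to 475.4, so these settings could hardly have changed them. Shared windows, 20.8% at 50 bases, were 47.4% at 25, 1.29% at 100 and 0 at 150, since longer windows match exactly less often. Depth is unknown, so counting error cannot be given.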
